A study of Drosophila melanogaster with 2 samples.

Results

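Some of the strongest candidate binding regions of the Drosophila protein CG43689 did not appear in the authors' main list of thresholded peaks, although they scored as highly as the peaks that did. Of 151546 ranked candidate peaks in the pooled data, 2176 (1.44%) had a score of at least 830, the lowest score found in the main list. The main list held 2088 of them, or 1.38% of all ranked peaks. It lacked the other 88, which are 4.04% of the peaks that reached the score and 0.0581% of all ranked peaks. These 88 are called absent peaks here. The genes described are 6, namely cbt, Lk6, CG18428, larp, CG6966 and Kdm2, and they were chosen by the pooled score and by position. Each is the gene whose protein-coding start site lay nearest to 1 or more of 10 of the absent peaks. The other 78 absent peaks lay nearest to other genes or off the chromosome arms and are given only as counts. They reached the same score, and the 6 genes were chosen with earlier results of these data known.

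The data are chromatin immunoprecipitation and sequencing (ChIP-seq) from Drosophila melanogaster, with whole embryos collected at 8 to 24 h. All embryos carried a transgene for CG43689 fused to eGFP, and chromatin sonicated to 200 to 800 bp was precipitated with an antibody against GFP. One label names CG43689 itself as the antibody's target. The promoter that drives the fusion protein is not given in the sources used here. There is 1 group, measured in 2 biological replicates, with no second condition, and no control library was analysed here. The thresholded lists rest on the irreproducible discovery rate (IDR), which compares how peaks rank between sets of calls. There is a pooled main list, a pooled conservative list and 1 list per replicate, and each has a longer ranked list that holds its peaks. The signal value of a peak is the authors' own measure of its height, its scale differs between lists, and the score is the authors' too, with an upper limit of 1000. Since the genes were selected on pooled scores, these values are a description and no test was made on them.

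In ChIP-seq, DNA bound by a protein is enriched by an antibody, and a peak is a stretch where the enriched fragments pile up. Thresholding keeps the candidate regions that rank alike in repeated calls, and the summit is the position of greatest enrichment. The 6 genes differ in what they encode. The gene cbt (cabut) encodes a zinc finger transcription factor related to the mammalian TGF-beta inducible early gene factors. Lk6 encodes a protein kinase that phosphorylates the cap-binding translation factor eIF4E. The larp gene encodes a La-related RNA-binding protein, and Kdm2 encodes a JmjC-domain protein of the histone demethylase family that is part of a Polycomb-group complex in Drosophila. CG18428 and CG6966 are known here by their identifiers only. No expression was measured, and a peak near a gene is a position, not a measure of that gene's activity.

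The strongest absent peak at each of the 6 genes is printed below, since these are the regions that the list lacks. The letters are the forward strand of the RefSeq genome of the same assembly (Release 6, dm6), with the 41 bases centred on the pooled summit in capitals. The peak at CG6966 is cut at its right end, where 25 bases belong to an untranslated exon of the neighbouring gene CG42788.
cbt peak 1, chr2L:480971-481208: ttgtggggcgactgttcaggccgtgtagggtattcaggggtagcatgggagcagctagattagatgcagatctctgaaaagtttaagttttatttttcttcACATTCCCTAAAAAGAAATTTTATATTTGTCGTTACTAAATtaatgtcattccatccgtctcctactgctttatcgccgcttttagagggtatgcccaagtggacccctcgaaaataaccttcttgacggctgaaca
Lk6 peak 1, chr3R:11760946-11761160: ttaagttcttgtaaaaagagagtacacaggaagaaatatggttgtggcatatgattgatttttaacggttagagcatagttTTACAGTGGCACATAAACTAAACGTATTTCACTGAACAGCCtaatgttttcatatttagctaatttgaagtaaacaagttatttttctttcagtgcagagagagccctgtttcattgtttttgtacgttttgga
CG18428 peak 1, chr3R:24109085-24109312: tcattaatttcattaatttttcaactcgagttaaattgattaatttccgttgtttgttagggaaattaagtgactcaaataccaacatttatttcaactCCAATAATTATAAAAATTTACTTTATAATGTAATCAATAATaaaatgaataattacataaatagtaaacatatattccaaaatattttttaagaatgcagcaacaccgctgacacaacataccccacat
larp peak 1, chr3R:28326531-28326685: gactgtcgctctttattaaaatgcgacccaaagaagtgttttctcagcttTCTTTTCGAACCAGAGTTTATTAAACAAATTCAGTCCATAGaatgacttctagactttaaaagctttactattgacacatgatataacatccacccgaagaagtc
CG6966 peak 1, chr3R:15095869-15095956: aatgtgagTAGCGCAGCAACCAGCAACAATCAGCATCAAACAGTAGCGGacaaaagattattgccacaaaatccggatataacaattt
Kdm2 peak 1, chr3R:9057399-9057698: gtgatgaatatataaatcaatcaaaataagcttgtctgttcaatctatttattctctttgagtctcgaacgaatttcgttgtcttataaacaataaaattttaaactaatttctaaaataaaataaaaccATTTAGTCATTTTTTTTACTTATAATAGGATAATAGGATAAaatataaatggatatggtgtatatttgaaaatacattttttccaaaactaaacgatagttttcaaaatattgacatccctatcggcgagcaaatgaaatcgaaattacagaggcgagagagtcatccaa

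The capitals hold between 20 A or T bases (CG6966) and 36 (CG18428), with 32 at cbt, 25 at Lk6, 28 at larp and 34 at Kdm2. The CG18428 peak also has the longest uninterrupted run of A and T among these 6, at 18 bases.

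The strongest absent peak at cbt and the absent peak at Lk6 were among the highest of the whole pooled list. Peak 1 at cbt (peaks of a gene are numbered by falling signal) had a signal of 948 and ranked 4 of 151546 peaks by signal. The peak at Lk6 had a signal of 745 and ranked 7. These were the 2 absent peaks among the 10 highest signals. The peak at CG18428 followed with 452 (rank 38) and that at larp with 382 (rank 61). Among the 100 highest signals 6 were absent, and 4 of those were the peaks at these 4 genes. The peak at CG6966 had a signal of 251 (rank 160). Peak 2 at cbt had 243 (rank 170). Peaks 1 to 3 at Kdm2 had 198, 122 and 95.9 (ranks 250, 602 and 934), and peak 3 at cbt had 108 (rank 758). All 10 peaks carried the highest score of 1000, as did 54 of the 88 absent peaks. Their median signal was 247, beside 79.8 over the 88 absent peaks and 88.1 over the main list, whose highest signal was 1040. Other absent peaks met the same score rule, so this median may reflect which genes were chosen.

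At the score limit itself the peaks on either side had close values. The 2 absent peaks with a score of 830 had signals of 55.5 and 59.5, and the 2 main peaks with that score had 59.1 and 62.5. The 4 ranked peaks with a score of 829 had signals from 43.9 to 57.5. None of the 10 peaks at the 6 genes was near this limit.

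**Figure D1:**
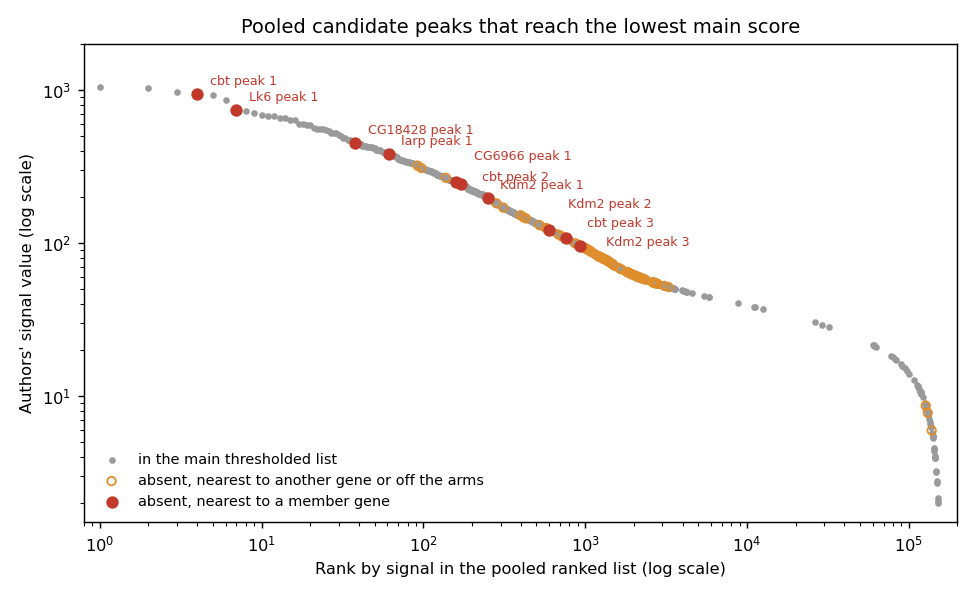
Signal value of each pooled candidate peak with a score of at least 830, on the y axis, against its rank by signal in the pooled ranked list, on the x axis, both on log scales. Grey points are main peaks, open orange circles are absent peaks nearest to other genes or off the arms, and red points are the 10 absent peaks at the 6 genes, which run from rank 4 to rank 934 among main peaks of like signal.

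At 5 of the 6 genes the absent peaks lay upstream of the nearest start site. Measured to the nearest protein-coding start site, 7 of the 10 summits were upstream and the 3 at Kdm2 were downstream. In all, 4 summits fell within 500 bp of a start site (a promoter here) and 6 in introns. Of the other 62 absent peaks on the arms, 18 were in promoters, 16 in introns and 21 between genes. The counts for the 10 peaks depend on which genes were chosen. All positions are on dm6.

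At cbt (FBgn0043364, 2L:476446-479688, reverse strand) 3 absent peaks lay upstream of the single start site. Peak 2 (2L:480027-480110) had its summit 398 bp upstream, in the promoter. Peak 1 (2L:480971-481208) lay 1404 bp upstream and peak 3 (2L:481875-482174) 2337 bp upstream. The summits of peaks 2 and 3 were 1006 and 933 bp from that of peak 1, so the highest peak stood in the middle of the row. All 3 lie inside the body of ush, which encodes a zinc finger cofactor of GATA factors and starts 4872 bp from the summit of peak 1, and ush rather than cbt is the nearest gene body. In the gene and 5 kb on each side, 13.2 kb in all, the pooled list had 19 ranked peaks. Of these, 5 reached the score, and none was in the main list. The other 2 of the 5 lay at the start of CG4297, with signals of 110 (276 bp upstream) and 62.5 (247 bp downstream). The highest ranked peak that missed the score had a signal of 56.6 and a score of 752, and lay inside cbt at 2L:476933-477232. The nearest main summit to any of the 3 cbt peaks was 3857 bp away.

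At Lk6 (FBgn0017581, 3R:11750931-11764457, reverse strand) the absent peak (3R:11760946-11761160) stood alone. Its summit lay 968 bp upstream of the inner of 2 annotated start sites and 3410 bp downstream of the outer one, in an intron of the longer transcript. The 23.5 kb of the gene and its surroundings held 8 pooled ranked peaks, or 0.340 per kb, while the other 5 genes had 0.964 to 1.49 per kb. This sparseness differed between the replicates. Replicate 1 had 6 ranked peaks there (0.255 per kb, against 0.771 to 1.36 at the other genes), and replicate 2 had 18 (0.765 per kb, against 0.912 to 1.28). The next signal after 745 was 40.6, with a score of 329. The nearest main summit was 34945 bp away, the longest such distance among the 10 peaks.

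At CG18428 (FBgn0039149, 3R:24109336-24110010, forward strand) the absent peak (3R:24109085-24109312) lay between 2 genes that run away from each other. The summit was 132 bp upstream of CG18428 and 244 bp upstream of eIF4EHP, which encodes a cap-binding protein that represses translation. The 10.7 kb around the gene held 12 pooled ranked peaks, of which 1 was in the main list. That main peak (3R:24112634-24112933, signal 62.0, score 896) was nearest to the start of the protein-coding gene CG13605, 395 bp upstream, and lay 180 bp from a leucine tRNA gene. Its signal was well under the 452 of the absent peak. In the conservative list the same region scored 731 and was not thresholded.

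At larp (FBgn0261618, 3R:28318162-28336440, reverse strand) the absent peak (3R:28326531-28326685) lay inside the gene, 337 bp upstream of an inner start site, 1 of 6 start sites annotated for the gene. The region also held 5 main peaks, the most of the 6 genes, among 42 pooled ranked peaks in 28.3 kb. The conservative list also held 5 thresholded peaks there, but the lists of replicate 1 and replicate 2 each held 0, and below the limit the highest scores were 689 and 745. The highest main peak had a signal of 79.2 and a score of 940 and lay 85 bp upstream of another inner start site and 814 bp downstream of the outermost one (3R:28335476-28335775). A second main peak overlapping it had a signal of 4.52 with a score of 939. The others had signals of 60.5, 68.4 and 65.9, with scores of 855, 981 and 989. The absent peak, at 382, was thus higher in signal and in score than all 5 main peaks of its own gene. Its nearest main summit was 2346 bp away, the shortest such distance among the 10 peaks.

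At CG6966 (FBgn0038286, 3R:15079320-15095631, reverse strand) the absent peak (3R:15095869-15095981) lay 266 bp upstream of the start site and 60 bp from the end of CG42788, which is the nearer gene body. The region held 36 pooled ranked peaks in 26.3 kb and 1 main peak inside the gene, 7818 bp downstream of the start (3R:15087663-15087962). That main peak had a signal of 141 and a score of 1000, against 251 for the absent one. It was thresholded in all 4 lists, with signals of 66.4 in replicate 1 and 65.5 in replicate 2.

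At Kdm2 (FBgn0037659, 3R:9052495-9063245, forward strand) 3 absent peaks lay in introns, downstream of the inner start site. Peak 3 (3R:9054637-9054936) lay 1496 bp from it, peak 2 (3R:9055761-9056060) 2620 bp and peak 1 (3R:9057399-9057698) 4258 bp, with gaps of 1124 and 1638 bp between summits. The peak deepest in the gene was thus the highest. The 20.8 kb held 20 pooled ranked peaks and no main peak, and the nearest main summit to any of the 3 was 22781 bp away. The next peak in height had a signal of 45.9 and a score of 791.

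Over the 6 regions, 122.787 kb in all, the pooled list held 137 ranked peaks. Of these 19 reached the score, with 7 in the main list and 12 absent. In the conservative list the same regions held 141 ranked peaks, 6 thresholded and 12 absent. Replicate 1 had 111 ranked, 2 thresholded and 10 absent, and replicate 2 had 123 ranked, 2 thresholded and 10 absent. Thresholded peaks made up 1.36% of all ranked peaks in the conservative list, 1.07% in replicate 1 and 1.04% in replicate 2. No pooled main peak was found in the regions of cbt, Lk6 and Kdm2. For cbt this depended on the size of the region, since 4 main peaks with signals of up to 145 lay there when 10 kb was taken on each side. With 2 kb the region of CG18428 held no main peak either. In each of the other lists 4 regions held no thresholded peak. These counts follow in part from the rule, which chose genes with absent peaks.

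**Figure D2:**
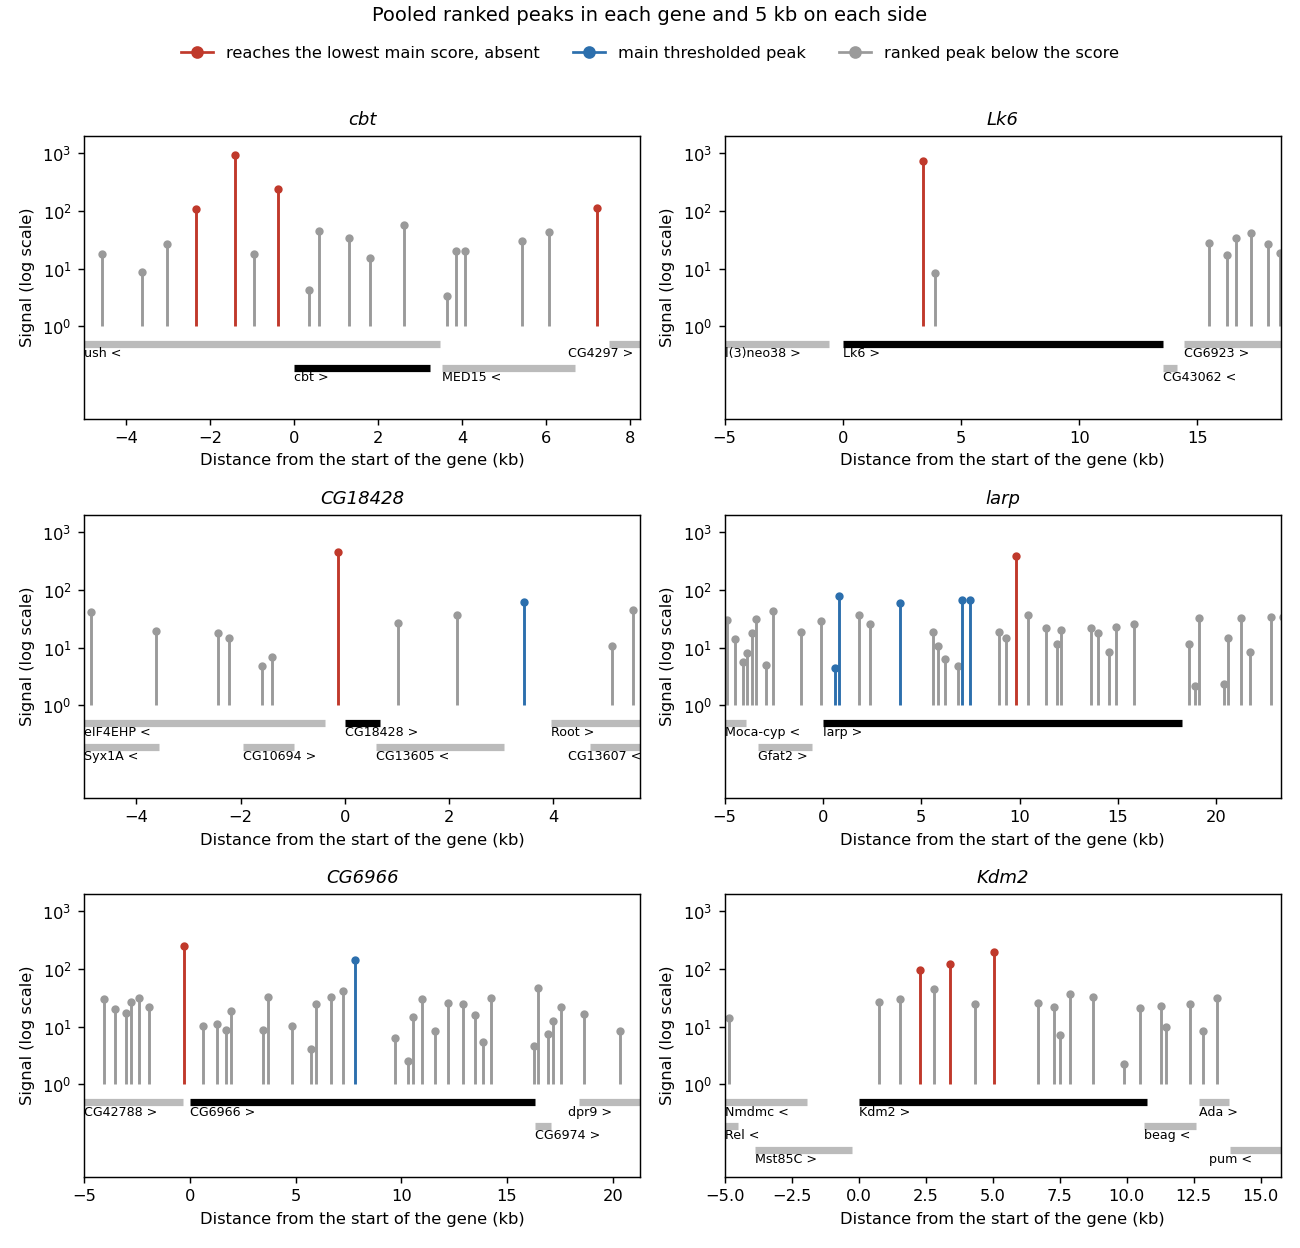
Pooled ranked peaks in each gene and 5 kb on each side, with the distance in kb from the gene's start, in the gene's own direction, on the x axis and the authors' signal value on a log y axis. Red stems are absent peaks, blue stems main peaks and grey stems ranked peaks below the score. Black bars are the 6 genes and grey bars their neighbours, and > or < after a name gives its direction in the plot. The absent peak is the tallest in every region, and the CG4297 peak of signal 62.5 overlaps the edge of the cbt region with its summit just outside the axis.

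Both replicates had ranked peaks at these positions. All 10 had an overlapping ranked peak in both replicates, with summits 1 to 61 bp from the pooled one. An overlapping ranked peak in both replicates was also found for 76 of the other 78 absent peaks and 2048 of the 2088 main peaks. It therefore does not set the 10 apart. Absence was also seen in the other lists. The conservative list lacked all 10, where 83 of the 2131 peaks that reached its lowest score were absent (3.89%). The ranked list behind it holds the same 10 pooled peaks, with the same positions, signals and scores. Their absence there is therefore not a second observation. Among ranked peaks that reached the lowest thresholded score of their list, 3.91% were absent in replicate 1 and 4.17% in replicate 2. Of the 10 peaks, 9 were absent from the list of replicate 1 and 1 was thresholded. In replicate 2, 8 were absent, 1 was thresholded and 1 was below the score. The replicate lists came from the same 2 libraries as the pooled list, so they are not independent of the rule.

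Peak 1 at cbt had a signal of 472 in replicate 1 (rank 4) and 489 in replicate 2 (rank 5). At Lk6 the signals were 352 (rank 8) and 394 (rank 9). At larp they were 198 (rank 58) and 191 (rank 62). Both replicates thus placed these 3 peaks near the top of their own lists. At CG6966 the signals were 135 (rank 126) and 124 (rank 178). Peak 2 at cbt was less even, with 153 in replicate 1 (rank 101) and 89.9 in replicate 2 (rank 293). Peak 3 at cbt had 54.0 (rank 758) and 53.3 (rank 873). Scores of these cbt, Lk6, larp and CG6966 peaks were 1000 in both replicates.

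The 3 peaks at Kdm2 were each lower in replicate 2 than in replicate 1. Peak 1 had 117 (rank 172) and 81.0 (rank 380), and peak 2 had 66.9 (rank 518) and 61.3 (rank 665). Peak 3, the nearest to the start site, had 59.7 with a score of 1000 in replicate 1, and 32.3 with a score of 584 in replicate 2 (rank 2472), which is below the 831 needed there. The ratio of replicate 2 to replicate 1 signal was 0.692, 0.916 and 0.541 for these 3 peaks. Over the 2048 main peaks with a ranked peak in both replicates the median ratio was 1.07, with an interquartile range of 0.859 to 1.35. The ratio at cbt was 1.04, 0.586 and 0.986 for peaks 1 to 3, and 1.12 at Lk6, 1.24 at CG18428, 0.966 at larp and 0.918 at CG6966. Of the 10 peaks, 3 (2 at Kdm2 and 1 at cbt) lay below the interquartile range of the main peaks, and none lay above it. By definition this range also leaves out a share of the main peaks on each side. A count of 3 in 10 cannot be told from that share.

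CG18428 was the exception to absence in the replicates. Its peak had signals of 201 in replicate 1 (rank 54) and 249 in replicate 2 (rank 33), and both replicate lists held it as a thresholded peak, although neither pooled list did. The replicate peaks were narrower than the pooled one, at 99 bp (3R:24109184-24109282) and 104 bp (3R:24109187-24109290) against 228 bp. They covered 43.4% and 45.6% of the pooled peak. Both began well inside it, 99 and 102 bp after its start, and ended 30 and 22 bp before its end. The summits were 12 and 1 bp from the pooled summit. The bases present in the pooled peak and in neither replicate peak were thus mostly on the left, on the side of eIF4EHP.

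**Figure D3:**
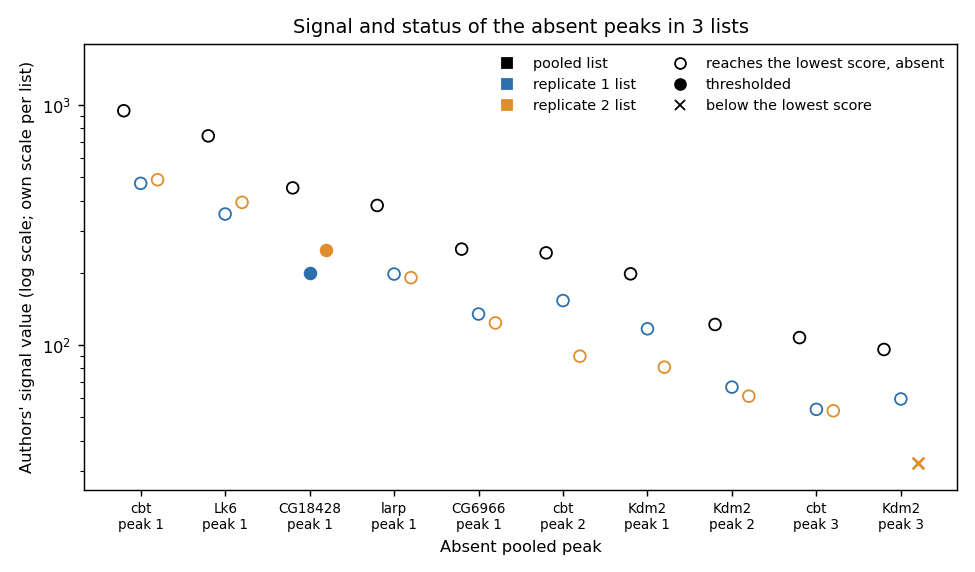
Authors' signal value, on a log y axis, of the 10 absent peaks in the pooled, replicate 1 and replicate 2 ranked lists. The CG18428 peak is the 1 that was thresholded in both replicates, and Kdm2 peak 3, at 32.3, is the 1 that fell below the score in replicate 2. The signal scale differs between lists.

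Thresholded peaks of the other lists covered few of the 10, which follows in part from the rule. Of the 2088 main peaks, 881 (42.2%) overlapped a thresholded peak in both replicates, 620 in 1 and 587 (28.1%) in neither, and 1781 (85.3%) overlapped a conservative peak. Of the 10 peaks, 1 overlapped a thresholded peak in both replicates, 9 in neither and none a conservative peak. For 8 of the 10 the best-overlapping ranked peak reached the score and was absent in both replicates. This held for 21 of the other 78 absent peaks, and for none of the main peaks. For 1 main peak it held in 1 replicate. The 10 peaks had a higher median signal (247, beside 79.8 over all 88 absent peaks). Absent peaks of like height were not compared, so the difference from the other 78 may be one of height. Per the deposited file descriptions, all 4 thresholded lists drew on 1 further source file that is named for no ranked list. What it holds is not given in the sources used here, and its part in the absence was not tested.

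**Figure D4:**
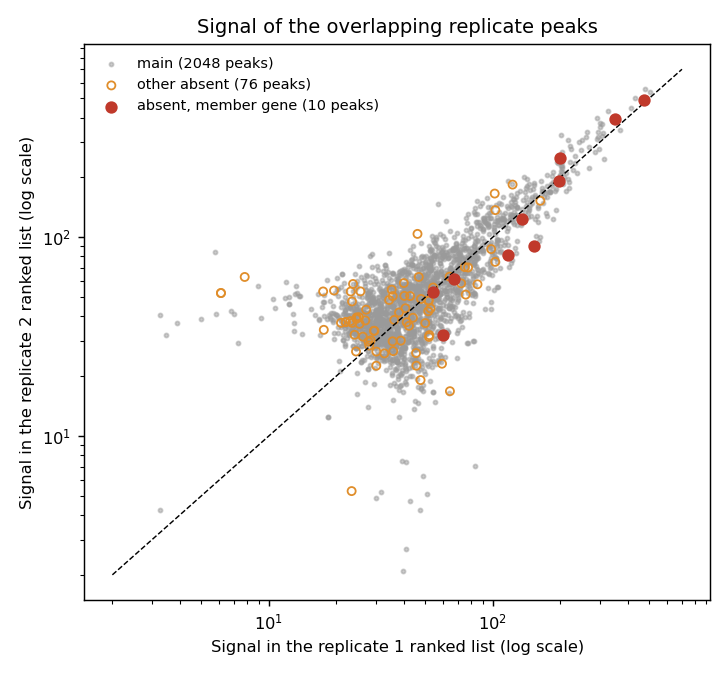
Signal of the overlapping ranked peak in replicate 1 (x axis) and replicate 2 (y axis), both on log scales, for main peaks and for absent peaks. The 10 peaks at the 6 genes lie within the cloud of main peaks, with cbt peak 1 and the Lk6 peak near its upper end.

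For each of the 10 peaks, 1 main peak had the most similar standing, by the smallest summed difference in signal percentile over the pooled list and the 2 replicate lists. Peak 1 at cbt (948, 472 and 489 in the pooled, replicate 1 and replicate 2 lists) was most like a main peak in an intron at CG11050, with 970, 478 and 491. The Lk6 peak was most like a promoter peak at CG7601, with 726, 328 and 432. The CG18428 peak was most like one at tank, with 444, 198 and 243. The larp peak was most like one at Rtnl1, with 384, 192 and 190. Peaks of almost the same height in all 3 lists were thus in the main list in 1 case and not in the other. The likeness of the weaker peaks was to main peaks at Toll-7 for CG6966 (253, 130 and 124), koko for cbt peak 2, JIL-1 and Tlk for Kdm2 peaks 1 and 2, CAP for cbt peak 3 and CG3638 for Kdm2 peak 3. This likeness is one of height only.

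The width of the peaks went with their height. Of the 10, 6 were narrower than 300 bp, the greatest and commonest width in the pooled list, and they were the 6 highest. Their widths ran from 84 bp (cbt peak 2) to 238 bp (cbt peak 1). Only 176 main peaks (8.43%) were narrower than 300 bp. Of the 157 main peaks whose signal lay between those of the 6 narrow peaks, however, 138 (87.9%) were narrower than 300 bp, with a median of 162 bp. The 10 peaks were 2346 to 34945 bp from the nearest main summit, with a median of 6940 bp. For main summits on the arms, the median distance to the nearest other main summit was 8986.5 bp.

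Sequence was not used by the rule. None of the 10 peaks held a stretch of 36 bases that occurs elsewhere in the genome. Of the other 62 absent peaks on the arms, 18 (29.0%) held one, and in 17 peaks at least 50% of the bases lay in such stretches. Among 2062 main peaks on the arms, 17 (0.824%) held one. At 10 peaks, a count of 0 is too small to tell their share from that of the main list.

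The 10 summits were rich in A and T. The median GC content within 50 bp of a summit was 28.7%, with a range from 16.8% (Kdm2 peak 1) to 40.6% (CG6966). The CG18428 summit had 17.8%, Kdm2 peak 2 had 21.8% and Kdm2 peak 3 had 26.7%. Peaks 1 and 3 at cbt had 28.7%, cbt peak 2 and the larp peak 33.7%, and the Lk6 peak 30.7%. The median was 37.6% at the other 62 absent summits, 32.7% at main summits and 46.5% at the 146366 ranked summits outside the main list. All 10 summits lay below this last median.

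**Figure D5:**
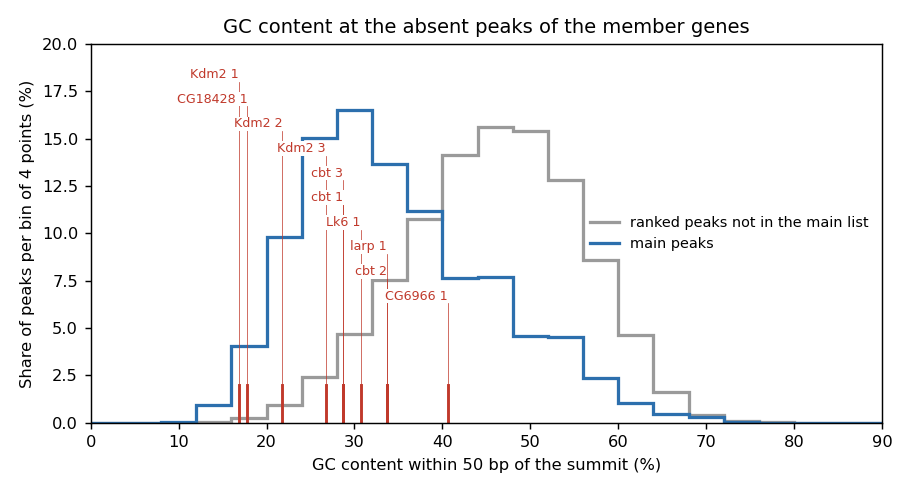
GC content within 50 bp of the summit (x axis, percent) for main peaks and for ranked peaks outside the main list, as shares of each class, with the 10 absent peaks at the 6 genes marked singly. The marked values lie between 16.8% and 40.6%, on the low side of the ranked peaks.

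Short words were sought within 50 bp of the summit on both strands, and a match is a description of letters only. The word AAATAT was found at 5 of the 10 summits (cbt peak 1, Lk6 and all 3 at Kdm2). It was found at 29.0% of the other absent summits, 32.7% of main summits and 12.5% of ranked summits. TATAAA, the letters of the TATA box, was found at 4 (cbt peak 1, CG18428, Kdm2 peak 1 and Kdm2 peak 3), against 9.68%, 21.5% and 7.94%. The 2 words can share bases. TATCGATA (DNA replication-related element), GAGAGA, GGTCACAC (the core bound by M1BP) and the heat shock element were found at none of the 10. Main summits held them in 1.12%, 3.44%, 0.533% and 0% of cases, and ranked summits in 0.194%, 3.51%, 0.189% and 0.0786%.

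Genes related to the members were looked at in 4 lists, counting a main summit within 500 bp of a start site. Over 13945 protein-coding genes, 1166 (8.36%) had such a summit, and 23 (0.165%) had an absent one. Of 10 Kruppel-like and Sp zinc finger genes, the family of cbt, only dar1, a factor of dendrite growth, had a main summit (signal 60.0, 51 bp upstream), and cbt was the 1 with an absent summit. Of 10 genes of MAP kinase signalling and translation control matched around Lk6, Thor, which encodes the eIF4E-binding protein, had one (80.9, 37 bp upstream). The stress kinase gene p38a had a higher one (226, 91 bp upstream). Of 5 genes in the list of La and La-related genes, which also counted pAbp, only larp had a main summit. It was also the 1 gene of that list with an absent summit. The lists count cbt, Lk6, larp and Kdm2 themselves, which were chosen for having absent peaks. The absent summits at cbt and larp therefore follow from the rule and say nothing about their families. None of 14 matched JmjC and LSD1 demethylase genes, a list that includes the JmjC family of Kdm2, had a main or an absent summit there. The shares with a main summit, 10%, 20%, 20% and 0%, rest on 0 to 2 genes each and cannot be told from the 8.36% over all genes.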

How the data were processed

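Peak lists from 2 replicates of 1 group were analysed, not reads, so depth per library is unknown. The deposited score (up to 1000) and signal value of each peak are the authors' own, per the file headers and descriptions, on dm6. A signal from different lists was compared only through ranks and, as a description, the ratio between replicates. Aligner and peak caller: not given in the sources used here. All 8 lists match their deposited checksums. From these lists, absent peaks were found by score, and each was put with the nearest protein-coding start site of Ensembl 115. Regions were each gene with 5 kb on each side, and a shared base of 1 bp or more was an overlap. Sequence came from the RefSeq genome of the same assembly, whose arm lengths hold all peaks. Repeats were counted as stretches of 36 bases found more than once in the genome, checked on simulated sequence. Positions are 1-based.

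The genes, lists and words were chosen with earlier results of these data known, so no test was run and no p-value is given. With 1 group of 2 samples and no control analysed, p-values over samples could not be had. Genes named beside the 6 were CG43689, the main peak most like each absent peak by signal percentile, genes with a main peak in a region, and listed related genes with a main summit at a start. ush, eIF4EHP, CG42788 and CG4297 lie beside the peaks and were named after their values were seen. Alternatives were the score limit, the list, gene assignment, overlap, region size, summit window and stretch length. Python 3.11.15, pandas 2.3.3, numpy 2.4.6 and matplotlib 3.10.9 were used.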

Additional observations from a re-analysis of the deposited data

How the results depend on the processing

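Counts of absent peaks depended on the list and the limit. Their share of the peaks that reached the lowest thresholded score lay between 3.89% and 4.17% in every list. Of 88 absent peaks, 54 were left at a score of 1000. The replicate lists alone gave 51 and 55, and the conservative list 83. The 10 peaks at the 6 genes stayed 10 at a score of 1000 and in the conservative list, and were 9 and 8 in the replicates. The count at a score of 1000 was fixed in advance, since all 10 had that score. The conservative count is no second observation, since its ranked list holds the same peaks. By nearest gene body instead of start site, 6 of the 10 stayed with the same gene. The single replicate overlap, at CG18428, fell from 1 to 0 in each replicate when 50% of the peak had to be covered. With 10 kb on each side the regions held 208 ranked and 12 thresholded peaks, from 137 and 7, and still 12 absent. With 2 kb they held 95, 6 and 9. Genes without a main peak numbered 3 at 5 kb, 2 at 10 kb, where cbt had 4 main peaks, and 4 at 2 kb, where CG18428 had none. Median GC rose from 28.7% to 34.1% with 100 bp on each side of the summit. It was then 37.1% at the other absent peaks, 36.3% at main peaks and 45.8% at other ranked peaks, so the 10 peaks lay closer to all 3 classes than with 50 bp. Of 30 signal percentiles in other lists, 11 moved past their 95% counting interval, and the lowest was 97.96. All 11 were in replicate lists, and the conservative list holds the same 10 peaks with the same signals. The interval treats ranked peaks of the pooled list as independent draws, so it does not measure the spread between replicates. No paired analysis was possible because there is 1 group only. No depth is known, no control was analysed, and 10 peaks are too few to describe a class.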

Other observations

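The absent peaks were unevenly spread over the chromosome arms. Of the 72 on the arms, 34 (47.2%) were on 3R, which held 23.2% of the main arm peaks, and 7 of the 10 peaks at the 6 genes were there. The other 3, all at cbt, were on 2L, which held 13 absent peaks. This is a count over peaks that can share a locus, and no test was made.

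The CG43689 gene, which encodes the tagged protein, had no thresholded and no absent peak within its body and 5 kb on each side in any of the 4 lists. The pooled list had 38 ranked peaks there, with a highest signal of 52.0 and a highest score of 580.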
